A study of Mus musculus with 18 samples.

Results

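The nuclear-encoded oxidative phosphorylation genes are the genes of the cell nucleus whose products build or assemble complexes I to V of the inner mitochondrial membrane. Members were all protein-coding genes whose symbol starts with Nduf, Sdha, Sdhb, Sdhc, Sdhd, Uqcr, Cox4, Cox5, Cox6, Cox7, Cox8 or Atp5, without pseudogenes. The rule uses symbols and no measured value, but it was chosen with earlier results of these data known. The rule gave 98 of the 55416 genes in the tables, of which 87 had enough reads to be tested. Complex I was represented by 36 subunits and 8 assembly factors, complex II by 4 and 4, complex III by 8 subunits, complex IV by 19 subunits and 1 supercomplex factor, and complex V by 17 subunits and 1 related factor. Ndufa4 and Ndufa4l2 were counted with complex IV, because the Ndufa4 protein is a subunit of cytochrome c oxidase. A further 13 genes whose symbol matched the same prefixes were pseudogenes or had another biotype. They were left out, and together held a median of 0.515 TPM.

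The RNA came from mouse optic nerve head, where ganglion cell axons exit the retina into the nerve, cut from sections by laser capture microdissection. The labels name mice of the strain B6.EDA+/+, which as background carry a fibronectin allele that always includes the extra domain A (EDA) exon, and C57BL/6J controls. At 12 months of age there were 5 libraries of each, and at 22 months 3 EDA-labelled and 5 control-labelled libraries. The labels give no sex, litter or batch, nor which animal a library came from, so every p-value here is set against library-to-library spread that could be technical.

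Electrons enter the respiratory chain at complex I (NADH dehydrogenase) or complex II (succinate dehydrogenase), pass through complex III (cytochrome bc1) to complex IV (cytochrome c oxidase), and the proton gradient built on the way drives complex V, the ATP synthase. Most subunits are encoded in the nucleus and a small core set on the mitochondrial genome, so the complexes need products of both genomes. Unmyelinated axons of the optic nerve head are known to be rich in mitochondria, and a captured section also holds the RNA of astrocytes, vessels and other cells. In such bulk tissue, fewer cells of a type and less RNA per cell cannot be told apart.

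RSEM, which shares a read among the genes it matches equally well, gave 13097498 to 18488733 expected counts per library. Of the genes, 9703 to 13048 reached 10 reads. All 8 astrocyte markers were measured, with Gfap the highest. Their summed level was 7240 to 14861 CPM (counts scaled to library size and between libraries by TMM) in 17 libraries and 33051 CPM in EDA-labelled replicate 4 at 12 months. Pigment epithelium markers summed to at most 3.6 CPM in any library. Xist was at 6.52 to 8.77 log2 CPM before TMM, with summed Y-linked genes at -0.79 or below, in EDA-labelled replicate 1 at 22 months. The same held at 12 months for EDA-labelled replicates 4 and 5 and control-labelled replicates 1 and 2. In all other libraries Xist was at most 1.40 and the Y-linked genes at least 6.30. Sex, read from these genes, was thus unevenly spread over the groups. The fibronectin isoforms did not separate the labels. At 22 months the EDA exon had a share of 4.21% ± 7.29 (SD, n = 3) under the EDA label and of 41.8% ± 53.3 (SD, n = 5) under the control label. At 12 months the shares were 22.8% ± 28 and 31.1% ± 44.6 (SD, n = 5 each). The share is the way RSEM divided TPM among 4 isoforms with and 4 without the exon, not a count of reads on the exon. It ran from 0% to 100% between libraries, on 66.9 to 1485 reads of these isoforms. It therefore cannot tell which libraries carry the exon. Groups are therefore named by their labels throughout.

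Many promoters of these genes are known as targets of nuclear respiratory factor 1 (NRF1) and of factors of the ETS family such as GABP. RefSeq start windows, from 250 bases before to 50 after a gene's start in GRCm38.p6, existed for 78 member symbols. The NRF1 palindrome, the 10 capital letters in a row in the Cox6a1 window, was found in the windows of 7 of them (8.97%), against 1.47% of 17492 protein-coding genes. The ETS letters CCGGAAG, searched on both strands, were in 21 (26.9%), against 12.9%. The 2 motifs share no overlap in the windows printed here. Members whose window held the NRF1 letters had a median of 2.72 TPM, and the others 3.61 TPM, where TPM is a level scaled to transcript length and to library size. A match of letters is a description, not a bound site. The 6 windows below, each 300 bases, were chosen as those of the highest member and of a member with a median of 0 (Cox6a1 and Cox5a), of the highest and lowest subunit of complex II (Sdhd and Sdhb), and of members that, with Sdhd, were low together in 1 library (Ndufb5 and Cox8a). Capitals mark the NRF1 and ETS letters or their reverse complement. The Cox6a1 window lies on the minus strand at chr5:115348909-115349208, Cox5a on the plus strand at chr9:57520982-57521281, Sdhd on the minus strand at chr9:50603800-50604099, Sdhb on the plus strand at chr4:140961021-140961320, Ndufb5 on the plus strand at chr3:32736813-32737112 and Cox8a on the minus strand at chr19:7217567-7217866.
Cox6a1: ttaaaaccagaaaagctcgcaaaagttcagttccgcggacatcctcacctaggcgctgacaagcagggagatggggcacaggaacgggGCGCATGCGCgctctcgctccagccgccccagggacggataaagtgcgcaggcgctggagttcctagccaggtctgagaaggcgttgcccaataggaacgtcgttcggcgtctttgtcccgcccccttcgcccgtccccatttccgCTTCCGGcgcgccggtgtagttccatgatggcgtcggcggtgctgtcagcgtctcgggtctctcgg
Cox5a: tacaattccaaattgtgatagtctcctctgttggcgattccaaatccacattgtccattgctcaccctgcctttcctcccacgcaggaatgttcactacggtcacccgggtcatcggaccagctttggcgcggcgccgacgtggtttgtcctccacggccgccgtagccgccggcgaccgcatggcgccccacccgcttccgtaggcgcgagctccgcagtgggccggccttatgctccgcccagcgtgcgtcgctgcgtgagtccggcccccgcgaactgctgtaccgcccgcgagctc
Sdhd: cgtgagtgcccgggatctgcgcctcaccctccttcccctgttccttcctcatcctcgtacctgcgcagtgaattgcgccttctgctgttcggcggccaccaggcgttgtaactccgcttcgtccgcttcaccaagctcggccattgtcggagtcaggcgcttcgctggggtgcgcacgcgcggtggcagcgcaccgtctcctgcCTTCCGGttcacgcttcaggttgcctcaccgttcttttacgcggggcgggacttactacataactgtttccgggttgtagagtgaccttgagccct
Sdhb: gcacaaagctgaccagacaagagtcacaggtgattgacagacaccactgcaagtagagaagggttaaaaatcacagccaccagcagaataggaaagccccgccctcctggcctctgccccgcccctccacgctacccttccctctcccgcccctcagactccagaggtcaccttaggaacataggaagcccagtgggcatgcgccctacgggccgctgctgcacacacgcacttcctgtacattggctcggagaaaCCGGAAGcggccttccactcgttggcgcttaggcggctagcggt
Ndufb5: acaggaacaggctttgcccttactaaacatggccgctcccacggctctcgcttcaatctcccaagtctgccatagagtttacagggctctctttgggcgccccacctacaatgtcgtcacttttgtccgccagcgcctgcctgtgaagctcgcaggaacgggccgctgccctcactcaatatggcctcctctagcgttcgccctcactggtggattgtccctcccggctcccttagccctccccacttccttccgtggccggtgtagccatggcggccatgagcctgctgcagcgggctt
Cox8a: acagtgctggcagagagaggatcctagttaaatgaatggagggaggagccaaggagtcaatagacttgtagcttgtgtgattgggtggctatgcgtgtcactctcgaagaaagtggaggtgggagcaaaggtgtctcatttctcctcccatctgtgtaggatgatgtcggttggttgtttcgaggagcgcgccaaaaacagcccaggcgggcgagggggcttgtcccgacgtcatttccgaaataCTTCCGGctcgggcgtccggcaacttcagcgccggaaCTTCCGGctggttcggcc

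The Cox6a1 window holds 1 NRF1 and 1 ETS match, Sdhd and Sdhb hold 1 ETS match each, and Cox8a holds 2. The windows of Cox5a and Ndufb5 hold neither set of letters. Cox6a1 was the highest member and Cox5a had a median of 0, while Ndufb5, with no match, was the highest member of complex I.

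The levels of members of one complex were far from equal, although its subunits are built into it in fixed ratios. Assembly factors, and alternative genes of the same subunit, are not held to such ratios. Over all 98 members the median level was 3.26 TPM, and over protein-coding genes 0.48 TPM. Among tested genes the order was the other way, with 3.62 TPM for members and 5.23 TPM for protein-coding genes. Of the members, 30 had a median below 1 TPM, 13 of these at 0, 38 had one of 1 to below 10, 21 of 10 to below 100 and 9 of 100 TPM or more. Cox6a1 alone held 44.8% to 86.0% of the summed TPM of all members in a library, and the 10 highest members together 85.0% to 95.3%. Reads were found in every library for 31 members, and 38 had a median of fewer than 10 reads.

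**Figure D1:**
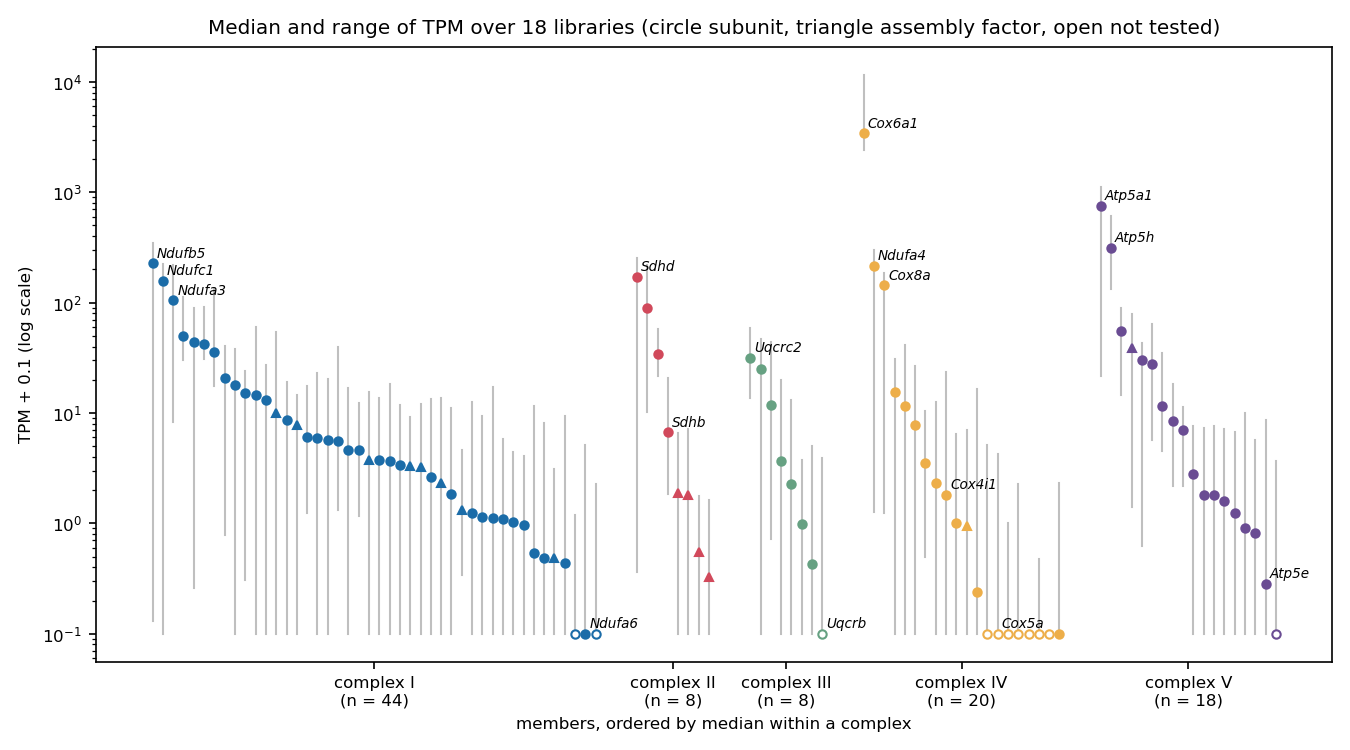
Level of each member as TPM + 0.1 on a log scale: points are medians and grey lines the range over 18 libraries, with members of complexes I to V ordered by level. Cox6a1, with a median of 3416 TPM, stands above all others, and 13 members have a median of 0.

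In complex I the 2 highest members were the accessory subunits Ndufb5 and Ndufc1. Ndufb5 had a median of 227 TPM and Ndufc1 of 157 TPM, followed by Ndufa3 at 105 TPM. Protein-coding isoforms held a median of 98.8% of the TPM of Ndufb5, but 31.5% of that of Ndufc1 and 12.6% of that of Ndufa3. Over all members without Cox6a1 such isoforms held 77.6% to 86.4% of the TPM in a library. Exons of Ndufa3 also overlap Tfpt on the opposite strand. Ndufv1, which carries the NADH-binding site, had a median of 50.2 TPM, and Ndufs1, the largest iron-sulfur subunit, 12.9 TPM. Ndufs3, another core subunit, had a median of 1.13 TPM. The lowest tested member was Ndufa6, at 0 in 12 of 18 libraries. The median over the 36 subunits was 4.56 TPM, so that Ndufb5 was 49.7 times the median subunit. Of the assembly factors, Ndufaf8 was the highest, at a median of 9.88 TPM.

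Complex II was the least uneven, with its highest subunit at 2.79 times the median subunit. Sdhd, one of the membrane anchors, had a median of 171 TPM, and Sdha, the flavoprotein that oxidises succinate, 88.6 TPM. The other anchor Sdhc had 34.3 TPM, and Sdhb, the iron-sulfur subunit, 6.6 TPM. No library listed any of the 4 subunits at 0, and their median of 61.4 TPM was the highest of the 5 complexes. Their assembly factors were low, from Sdhaf4 at 1.77 TPM to Sdhaf3 at 0.23 TPM.

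Complex III was led by the core subunit Uqcrc2, with a median of 31.5 TPM, and the hinge subunit Uqcrh, with 24.8 TPM. Uqcrfs1, the Rieske iron-sulfur protein, had 0.88 TPM, and Uqcr11, the lowest tested member, 0.33 TPM. Uqcrb was listed at 0 in 17 of 18 libraries and had 16 reads in the other. Uqcrb has 3 near-identical copies among the annotated transcripts, so reads from it could have been divided among them.

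Complex IV held both the highest member of all and most of those at 0. Cox6a1, a small subunit that lies outside the catalytic core, had 2402 to 11558 TPM, with a median of 3416. Ndufa4 had a median of 216 TPM and Cox8a 144 TPM, while Cox4i1, the ubiquitous form of the largest nuclear-encoded subunit, had 1.72 TPM. Cox5a was listed at 0 in 12 libraries, with at most 26 reads in any. Without Cox6a1, Ndufa4 and Cox8a, no subunit of this complex had a median above Cox6c, at 15.4 TPM. The median over 19 subunits was 0.91 TPM, the lowest of the 5 complexes. These 19 include alternative genes of the same subunit with few reads, such as Cox6a2, Cox7a1, Cox7b2 and Cox8b, and 12 were tested. Over tested members the median was higher and is given in the last section, so the low rank depends on counting such genes.

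In complex V Atp5a1, the alpha subunit of the catalytic head, had a median of 753 TPM, and Atp5h, a subunit of the stalk, 313 TPM. Atp5b, the subunit of the head that carries the catalytic sites, had 55 TPM. Atp5h has 4 near-identical copies and Atp5l has 9, so both values are uncertain, whereas Cox6a1, Atp5a1, Ndufb5 and Sdhd have none by the same criterion (95% identity over 50% of the transcript). The lowest tested member was Atp5e, the smallest subunit of the head, at a median of 0.18 TPM and 0 in 9 libraries. Across the 98 members the level showed Spearman rank correlations of 0.16 with transcript length, 0.02 with GC content and 0.00 with the number of near copies. These are descriptions across genes, which are not independent replicates. In 36 members exons overlap another gene, and these libraries keep no strand, so reads of such pairs cannot be told apart: Ndufb5 overlaps Mrpl47 and Atp5a1 overlaps Haus1, each on the opposite strand.

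For several subunits the genome holds an alternative gene used mainly in muscle, testis or hypoxic cells. The heart and muscle forms had few reads, with 29 of Cox6a2 in all 18 libraries against 367782 of Cox6a1, 2 reads of Cox7a1 against 105 of Cox7a2, and 1 read of Cox8b against 10369 of Cox8a. Cox7b2 had 0 reads, and Ndufa4l2, known as a hypoxia-inducible gene, had 64 reads against 16579 of Ndufa4. The exceptions were genes with few reads on both sides. Cox6b2, known as a testis form, had 754 reads against 189 of Cox6b1, and its share in the TPM of both had a range from 0% to 100% between libraries. Cox4i2, the lung form, had 66 reads against 345 of Cox4i1. Of the 3 genes that encode the identical mature subunit c of the ATP synthase, Atp5g1 had 930 reads, Atp5g2 253 and Atp5g3 167. Of 14 differences in these shares between labels that could be tested, the lowest exact two-sided permutation p was 0.048, for Atp5g1 against Atp5g3 at 12 months, and its adjusted p was 0.67. The share of Atp5g1 there was 78.3% ± 15.6 (SD, n = 5) under the EDA label and 36.6% ± 31.2 (SD, n = 5) under the control label.

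A single library stood apart in these genes. In EDA-labelled replicate 4 at 12 months Sdhd had 0.26 TPM, while the other 4 libraries of its group had 188 to 256 TPM. Ndufb5 had 0.03 TPM there and 271 to 339 TPM in the others, and Ndufc1 had 0 TPM and 166 to 224 TPM. Cox8a, Ndufa4 and Atp5a1 had 1.14, 1.17 and 21.4 TPM in that library, where the others of the group had 121 to 179, 157 to 235 and 706 to 1105 TPM. Other members were not low: Cox6a1 had 3375 TPM, Atp5h 604 TPM, Ndufa8 132 TPM and Ndufv1 113 TPM, and the last 3 were the highest values of all 18 libraries. Of the 30 members with a median of at least 10 TPM, 16 (53.3%) had their lowest value of all libraries there and 3 their highest. Of 5093 other genes at that level, 32.5% had their lowest and 25.3% their highest value in that library. Its Spearman correlation with the median of the other libraries was 0.32 over the members and 0.70 over all tested genes, where the other libraries had 0.74 to 0.92 and 0.80 to 0.93. Its summed astrocyte marker level was the 33051 CPM given above, of which Gfap alone held 29487 CPM. Slc1a3, Sox9 and Aldh1l1 also had their highest value of all libraries there. Aqp4, Slc1a2 and S100b had their lowest, at 44.9, 137 and 2.14 CPM, and Gja1 lay within the range of the others. The part of these differences in the members' values was not tested.

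**Figure D2:**
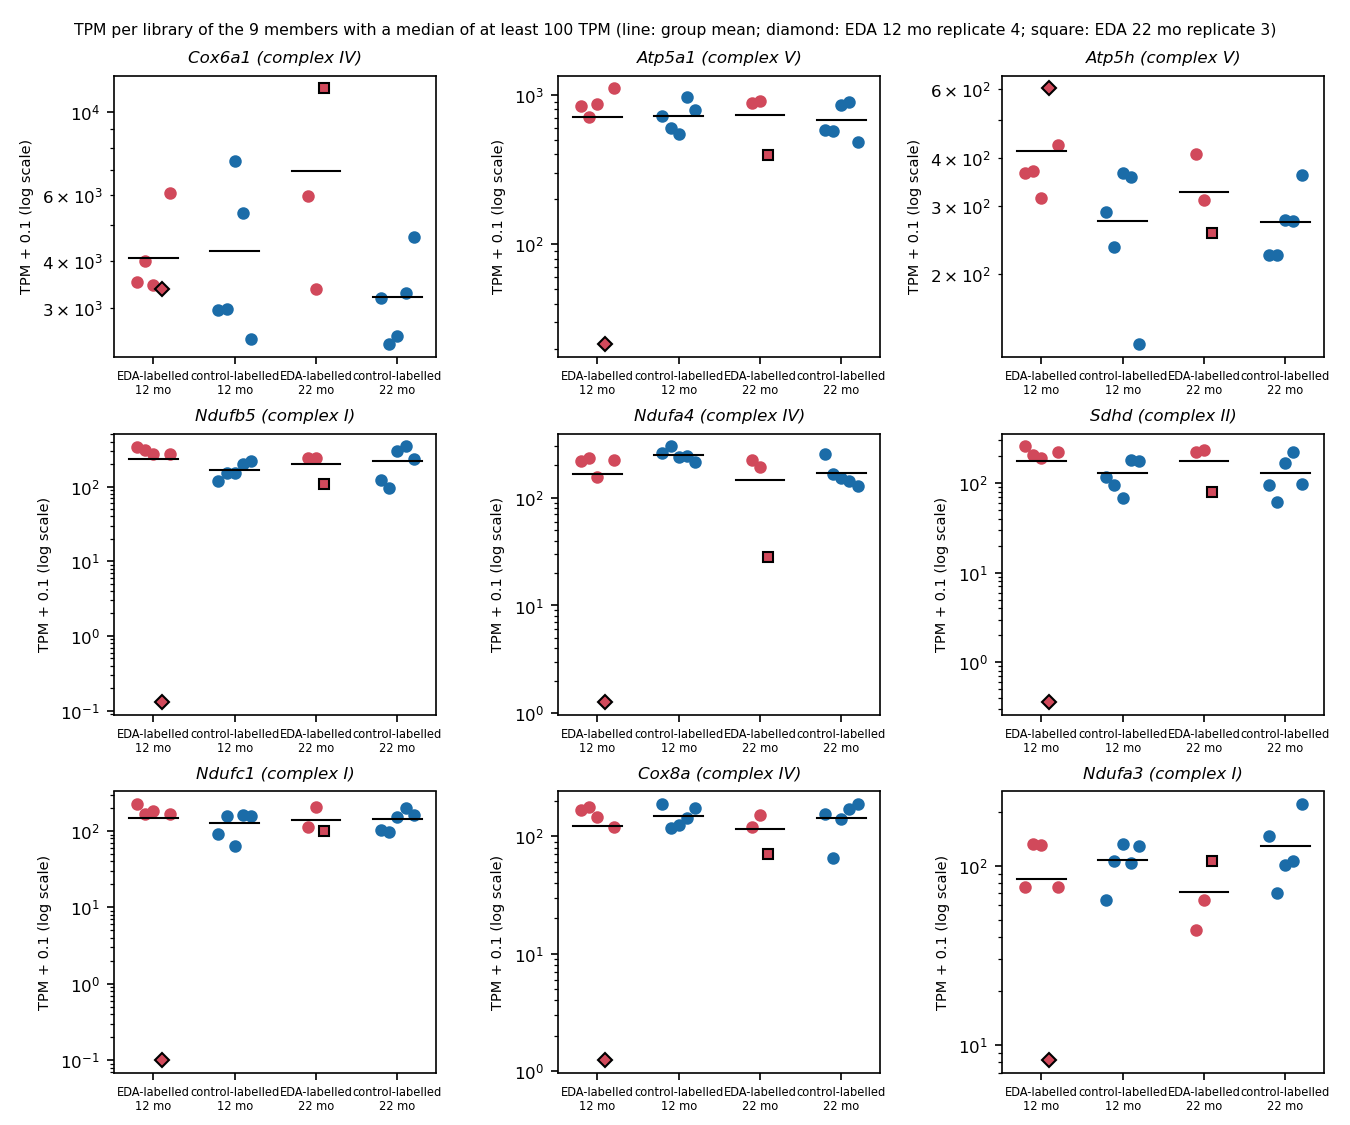
TPM + 0.1 on a log scale in each library, by label and age, for the 9 members with a median of at least 100 TPM, with lines at group means. The diamond is EDA-labelled replicate 4 at 12 months, with 0.26 TPM of Sdhd, 0.03 of Ndufb5 and 0 of Ndufc1, and the square is EDA-labelled replicate 3 at 22 months, with 11558 TPM of Cox6a1.

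At 22 months no member passed an adjusted p of 0.05 between the labels. Among the 36 members whose mean log2 CPM was 2 or higher, log2 fold changes ran from -1.41 to 1.44, with a median absolute value of 0.40 and a median standard error of 0.77, and 35 lay within 2 standard errors of 0. In the edgeR quasi-likelihood test 0 of 87 members passed, as did 0 of all 15118 genes (0.0%). At an unadjusted p under 0.05 there were 3 members with a higher and 1 with a lower level in EDA-labelled libraries, where 2.09% and 1.87% of all genes had such values. The median log2 difference over members was 0.05, beside -0.07 over all genes, and 46 of 87 were above 0, beside 46.0% of all genes. DESeq2 called 34 genes and limma with quality weights 1, and none was a member. The groups did not overlap in Ndufs3, which was higher, and in Cox7c and Atp5b, which were lower, where 1.32% of all genes were separated upwards and 1.43% downwards.

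Cox6a1 had the smallest unadjusted p of the members at this age. Its TPM was 5974, 3362 and 11558 in the EDA-labelled libraries and 3197, 2402, 2519, 3288 and 4633 in the control-labelled ones. Replicate 2 of the EDA-labelled group lay within the control range and replicate 3 far above it. On the scaled CPM the means were 2699 ± 2543 (SD, n = 3) and 1040 ± 352 (SD, n = 5), with a log2 fold change of 1.38 ± 0.47 (standard error), an unadjusted p of 0.0087 and an adjusted p of 1.0. Without EDA-labelled replicate 3 the log2 fold change was 0.26 and the unadjusted p 0.55. That library had 9703 genes with 10 or more reads, the fewest of all, and 1888 TPM in the other 97 members summed, where the other EDA-labelled libraries of this age had 3133 and 3287. ENSMUSG00000119584, a gene without a symbol that took 3.26% to 32.8% of the reads of a library, took 4.81% in it, and with that share as a covariate the log2 fold change of Cox6a1 was 0.39. What produced the high Cox6a1 value in that library was not tested. Marker levels of other cells also differed between libraries of this age. Of 15 skeletal muscle markers, 6 were at 0 everywhere, and their sum was 321 CPM in EDA-labelled replicate 1 and 0.8 to 13.2 CPM in the others. The sum of 14 photoreceptor markers, 1 of them at 0 everywhere, was 3233 CPM in control-labelled replicate 2 and 7.6 to 101 CPM elsewhere. All 7 oligodendrocyte markers had values below 0 in the fit, with 771 to 3847 CPM in EDA-labelled and 984 to 28770 CPM in control-labelled libraries. The 28770 CPM were in control-labelled replicate 3, and the other controls had 984 to 2879 CPM. The group medians of the sums had the other order, with 3425 CPM under the EDA label and 2216 CPM under the control label. The part of these cells in the members' values was not tested.

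Complex I held the other members at an unadjusted p under 0.05, each on few reads. Ndufs3 had 12.5, 1.5 and 0.76 TPM in EDA-labelled libraries and 0 to 0.64 TPM in control-labelled ones, which is a log2 fold change of 3.96 ± 1.77 with an unadjusted p of 0.036. Its reads in the lowest EDA-labelled library were 7, and in the highest control-labelled one 5. Ndufa6 had 11 reads in 1 EDA-labelled library and none in the other 7 libraries of this age. Its mean under the EDA label was 1.48 times a floor of 3 reads per library set for the controls. That ratio is no lower bound, since the mean rests on the 1 library. Without EDA-labelled replicate 3 both groups were at 0. Ndufa11 had 0, 0.32 and 0 TPM in EDA-labelled and 0 to 8.21 TPM in control-labelled libraries, with a log2 fold change of -4.96 ± 2.29 and an unadjusted p of 0.042. Ndufb7 had a similar distribution, 0, 0.23 and 0 TPM against 0 to 6.3 TPM, with an unadjusted p of 0.064. The abundant members of this complex differed less: the log2 fold change was -0.12 ± 0.82 for Ndufb5 and 0.23 ± 0.84 for Ndufc1.

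Cox7c, a small subunit of complex IV, had 3.93, 5.04 and 0 TPM in EDA-labelled libraries and 7.22 to 26.4 TPM in control-labelled ones. The groups were separate, but the log2 fold change of -2.22 ± 1.19 had an unadjusted p of 0.077. Cox7b had a log2 fold change of -4.06 ± 2.73 and rested on 1 control-labelled library with 16.4 TPM, since the others had at most 1.83 TPM. Cox7a2 had a log2 fold change of 2.28 ± 1.91. For the abundant Ndufa4 and Cox8a the log2 fold changes were -0.41 ± 0.78 and -0.35 ± 0.71.

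In complex II the differences at 22 months were within 2 standard errors of 0 for all 4 subunits. Sdhb had 13, 7.89 and 20.5 TPM in EDA-labelled and 2.25 to 13.4 TPM in control-labelled libraries, and a log2 fold change of 1.03 ± 0.81. Without EDA-labelled replicate 3 it was 0.17. Sdha, Sdhc and Sdhd had log2 fold changes of -0.42 ± 0.58, 0.25 ± 0.44 and 0.44 ± 0.81. Of the assembly factors Sdhaf1, Sdhaf2 and Sdhaf4, none had an unadjusted p under 0.26. In complex III the members with the smallest p were Uqcrc2, at -0.74 ± 0.51, Uqcrh at -1.39 ± 1.11, Uqcr10 at 1.87 ± 1.68 and Uqcrq at 1.54 ± 1.52 on the log2 scale.

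Atp5b of complex V had 57.2, 52.2 and 31.4 TPM in EDA-labelled and 48.1 to 61.3 TPM in control-labelled libraries. On the scaled CPM the groups did not overlap, with 31.8 to 39 CPM against 40.6 to 57.9 CPM, and the means were 36.4 ± 4.0 (SD, n = 3) and 46.2 ± 7.0 (SD, n = 5). The log2 fold change was -0.34 ± 0.40, and on TPM, which is not scaled by TMM, the ranges overlapped. Atp5a1 had a log2 fold change of 0.01 ± 0.60 and an interval of 2 standard errors from -1.18 to 1.20. Atp5o (ENSMUSG00000022956), a second symbol entry of which is listed under ENSMUSG00000116933, had 0.96 ± 0.70, and 0.04 without EDA-labelled replicate 3. Atp5g3 and Atp5d had -2.38 ± 1.93 and 1.28 ± 1.34 on 0 to 5.6 and 0 to 2.24 TPM.

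**Figure D3:**
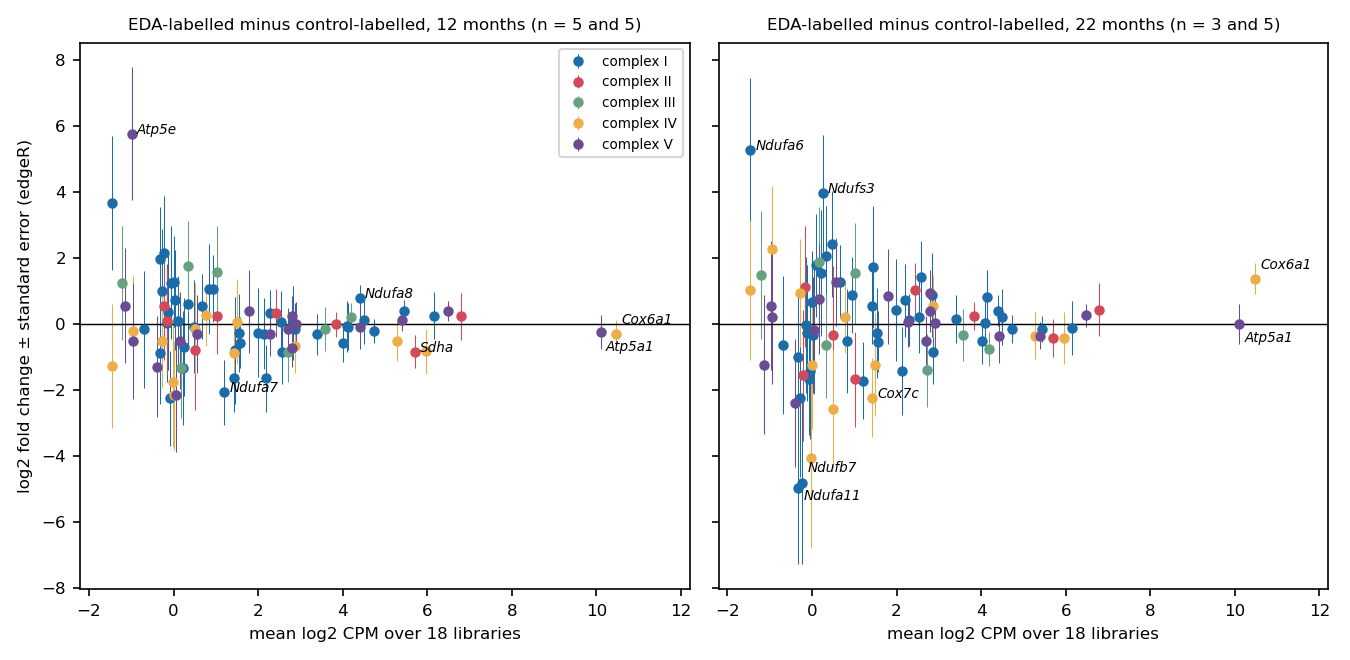
Difference between labels at 12 months (left) and 22 months (right) for the 87 tested members: log2 fold change with its standard error against the mean log2 CPM over 18 libraries, coloured by complex. The largest differences are found at low levels with wide errors, and Cox6a1, the most abundant member, is at 1.38 at 22 months.

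At 12 months, with 5 libraries of each label, 0 of 87 members passed in edgeR, beside 0 of all 15118 genes (0.0%). At an unadjusted p under 0.05 there was 1 member with a higher and 1 with a lower level, where 2.96% and 1.59% of all genes had such values. The median log2 difference was -0.08 over members and -0.01 over all genes, and 40 members were above 0, beside 49.5% of all genes. DESeq2 called 22 genes and limma with quality weights 2, again without a member. No member had groups that did not overlap, where 0.84% of all genes were separated upwards and 0.423% downwards.

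Atp5e was listed at 0 in all 5 control-labelled libraries and had 15, 13, 4, 3 and 0 reads in the EDA-labelled ones. Its mean under the EDA label was 2.23 times a floor of 3 reads per library set for the controls, and the unadjusted p was 0.011. That ratio is no lower bound, since the mean itself rests on few reads. The other member under 0.05 was Ndufa7 of complex I, with 1.21 to 6.56 TPM in EDA-labelled and 2.57 to 39.3 TPM in control-labelled libraries, a log2 fold change of -2.07 ± 0.99 and an unadjusted p of 0.049. Without control-labelled replicate 1 the unadjusted p of Ndufa7 was 0.20. Ndufa8 had 40.4 to 132 TPM against 17.3 to 45.0 TPM, with a log2 fold change of 0.79 ± 0.41. It was 0.30 without EDA-labelled replicate 4, the library that stood apart. Ndufa6 and Ndufaf8 had 3.68 ± 2.02 and -1.64 ± 1.01.

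The label difference of Sdha at 12 months was -0.83 ± 0.50 on the log2 scale, with 69.8, 75.0, 66.9, 10.1 and 99.5 TPM in EDA-labelled and 41.5, 58.5, 174, 62.2 and 88.1 TPM in control-labelled libraries. Leaving out replicate 4 of the EDA-labelled group gave -0.54. Sdhb, Sdhc and Sdhd had 0.34 ± 0.72, 0.00 ± 0.38 and 0.24 ± 0.71, and Sdhd had 0.57 without that library. Sdhaf3 had -0.79 on 0 to 1.54 TPM. In complex III, Uqcrfs1 had 1.75 ± 1.39, Uqcrq 1.58 ± 1.38, Uqcrh -0.84 ± 0.91 and Uqcr10 -1.34 ± 1.5.

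Of the 13 tested members of complex IV, 2 were above 0 and 11 below at 12 months, with a median log2 difference of -0.50. All 13 lay within 2 standard errors of 0, and 0 had an unadjusted p under 0.05. In the same comparison all 7 oligodendrocyte markers were above 0, with a median of 0.81. Their summed level was 884 to 26623 CPM under the EDA label and 360 to 9436 CPM under the control label. The 26623 CPM were in EDA-labelled replicate 3, and the rest of that group had at most 4442 CPM. The group medians of the sums had the other order, with 2055 CPM under the EDA label and 2625 CPM under the control label. The part of these markers in the complex IV values was not tested. The smallest p among those below were for Cox7a2l, a supercomplex assembly factor, at -2.16 ± 1.64, and Ndufa4, at -0.83 ± 0.67. Ndufa4 had 220, 235, 157, 1.17 and 222 TPM in EDA-labelled and 258, 300, 236, 244 and 213 TPM in control-labelled libraries, and -0.50 without replicate 4. The 2 above 0 were Cox5b, at 0.28, and Cox6b2, at 0.08. Cox6a1, at -0.28 ± 0.42, had the opposite sign to its value at 22 months. In complex V the abundant Atp5h had 0.40 ± 0.31 and 0.18 without replicate 4, and Atp5f1 and Atp5j2 had -0.73 ± 0.56 and -2.13 ± 1.73.

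The comparisons with age share their libraries with those of the labels. In control-labelled libraries 0 of 87 members passed between 22 and 12 months, beside 0.0% of all genes. An unadjusted p under 0.05 was found for 2 members, where 3.51% of all genes had one. Of the 2, 1 was above and 1 below 0, beside 2.14% and 1.37% of all genes. There were 43 members above 0, beside 51.6% of all genes, and no member had separate groups, beside 0.351% upwards and 0.205% downwards. DESeq2 called 23 genes and limma 0, none of them a member. The 2 members were Atp5e, at 0 in all control-labelled libraries of 12 months and with 24, 0, 1, 7 and 0 reads at 22 months, and Ndufs3, with a log2 fold change of -3.48 ± 1.65. Sdhb and Cox4i1 had 0.98 ± 0.73 and 1.71 ± 1.42, and Cox4i1 had 23.3 TPM in 1 library of 22 months and at most 3.18 in the other 4. Atp5d and Cox7a2l had -2.02 ± 1.23 and -2.65 ± 1.68.

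In EDA-labelled libraries 0 of 87 members passed between the ages, beside 0.0% of all genes, and the lowest adjusted p was 0.96. DESeq2 called 41 genes and limma 0, none of them a member. An unadjusted p under 0.05 was found for 3 members, beside 4.98% of all genes: 2 were higher at 22 months and 1 lower, beside 2.6% and 2.38%. There were 45 members above 0, beside 46.9% of all genes. Cox6a1 had 1.28 ± 0.47, and 0.17 without EDA-labelled replicate 3 of 22 months. Ndufb4 had 13.5, 3.83 and 6.1 TPM at 22 months and 3.4, 1.91, 0.77, 0 and 1.57 TPM at 12 months. The groups of Ndufb4 did not overlap, and its log2 fold change was 2.56 ± 1.14 with an unadjusted p of 0.036. The lower member was Ndufb7, at -5.46 ± 2.54. Sdhb, at 1.67 ± 0.81, had an unadjusted p of 0.052. Ndufa11 and Sdhaf2 had -4.0 ± 2.17 and -2.56 ± 1.5. Groups were separate upwards in 3 members, Ndufb4, Ndufs4 and Atp5g2, and downwards in 3, Ndufb7, Ndufa11 and Ndufv2, beside 1.76% and 2.24% of all genes.

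The change of the label difference between the ages was tested as an interaction. In edgeR it passed for 0 of 87 members and for 0.0% of all genes, and DESeq2 called 32 genes and limma 1, none of them a member. There were 49 members above 0, beside 47.2% of all genes. At an unadjusted p under 0.05 were Cox6a1, with 1.66 ± 0.64, and Ndufb7, with -6.97 ± 3.01, beside 1.54% of all genes above 0 and 2.48% below. Without EDA-labelled replicate 3 of 22 months the interaction of Cox6a1 was 0.54 with an unadjusted p of 0.33. Ndufs3 and Ndufaf8 had 4.65 ± 2.30 and 2.36 ± 1.49, and Atp5e and Ndufa11 had -5.21 ± 2.47 and -4.09 ± 2.53.

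The 13 subunit genes of the mitochondrial genome, whose products join these members in complexes I, III, IV and V, held 8233 to 39508 TPM in a library together, where the 98 members held 4459 to 13446 TPM. The highest of them was mt-Nd2, at a median of 10753 TPM. At 22 months the summed scaled CPM was 8984, 11123 and 7588 in EDA-labelled and 27255, 15435, 14517, 22127 and 14105 in control-labelled libraries, so that the sums of the groups did not overlap, where 1.43% of all single genes were separated downwards. Of the 12 tested genes 0 were above 0, beside 46.0% of all genes, with a median log2 difference of -1.02, and 0 passed the adjusted threshold. ENSMUSG00000119584 took 4.81% to 17.3% of the reads in the EDA-labelled and 10.7% to 32.8% in the control-labelled libraries of this age. Of 7 oligodendrocyte markers 0 were above 0, and their sum was far higher in control-labelled replicate 3 than in any other library of this age. The part of that gene and of these markers in the mitochondrial values was not tested. The smallest p were for mt-Nd4, at -1.35 ± 0.44, and mt-Cytb, at -1.25 ± 0.42. At 12 months the median was -0.09, and mt-Atp6 and mt-Atp8 had 0.35 ± 0.37 and 0.38 ± 0.44. The sums then overlapped, with 5900 to 20684 CPM under the EDA label and 11790 to 23957 CPM under the control label. EDA-labelled replicates 4 and 5 of that age had 5900 and 8671 CPM. The 97 members without Cox6a1 are given on both scales for 22 months. Their summed scaled CPM was 2006 ± 250 (SD, n = 3) under the EDA label and 1983 ± 115 (SD, n = 5) under the control label. Their summed TPM was 2769 ± 767 (SD, n = 3) and 2768 ± 501 (SD, n = 5).

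**Figure D4:**
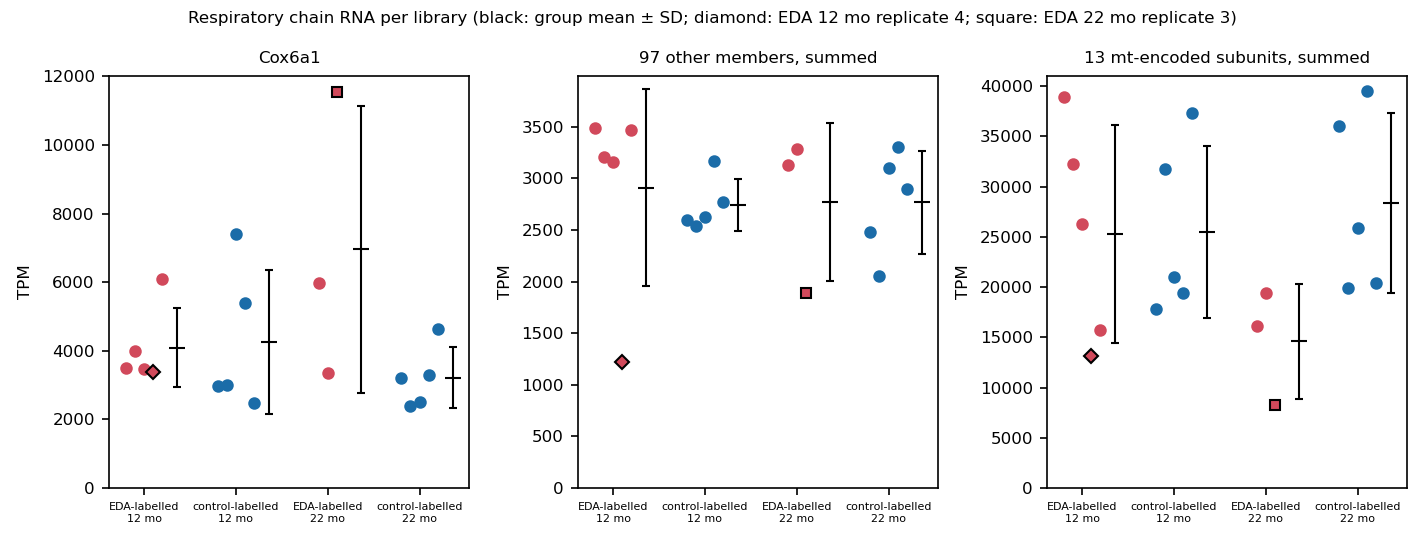
TPM per library by label and age of Cox6a1 (left), of the other 97 members summed (middle) and of 13 subunit genes of the mitochondrial genome summed (right), with group mean ± SD in black. The mean sum of the other members was 2769 TPM in EDA-labelled and 2768 TPM in control-labelled libraries at 22 months, while replicate 4 of the EDA-labelled group at 12 months, the diamond, had 1222 TPM.

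Other genes of the pathway were read from lists in the same fit, and no gene of any list passed the adjusted threshold in either label comparison. For this and the following lists, the share of all genes above 0 was 46.0% at 22 months and 49.5% at 12 months. Of 34 tested assembly factors outside the naming rule, 11 were above 0 at 22 months and 24 at 12 months. Cox18, which inserts a mitochondrially encoded subunit of complex IV into the membrane, had 1.73 ± 0.63 and Tmem186, a complex I assembly factor, -3.35 ± 1.80 at 22 months. At 12 months Tmem186 had 7.06 ± 1.75, and Cox17, a copper carrier, 3.49 ± 2.03. The median level was 2.125 TPM over the listed assembly factors, 3.98 TPM over carriers and coenzyme Q genes and 2.78 TPM over mitochondrial ribosome genes. Reads of single list genes are not given here, so the depth behind large values, as for Tmem186, Coq7 and Mrpl43, is not shown. Of 18 carriers and coenzyme Q genes 12 were above 0 at 22 months, led by Coq9 at 3.23 ± 1.57 and Etfa at 0.91 ± 0.45, and 11 at 12 months, where Coq7 and Etfdh had -5.97 ± 2.31 and -1.25 ± 0.84.

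Among 16 regulators of mitochondrial genes, 7 were above 0 at 22 months and 9 at 12 months. Nrf1, the gene of the factor whose letters were searched, had 0.48 ± 0.31 at 12 months and Twnk, the mitochondrial helicase, 0.85 ± 0.42. At 22 months Tfam and Polrmt, which transcribe the mitochondrial genome, had 2.67 ± 2.14 and -1.62 ± 1.44. Of 17 genes of the citric acid cycle and pyruvate dehydrogenase 6 were above 0 at 22 months, with Suclg1 at 0.86 ± 0.45 and Mdh2 at 1.48 ± 0.87, and 8 at 12 months, with Pdha1 and Dlat at -0.95 ± 0.48 and -0.80 ± 0.43.

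General mitochondrial genes such as import receptors and carriers had 7 of 14 above 0 at 22 months and 6 at 12 months. Tomm20 and Slc25a5 had 0.85 ± 0.29 and 0.58 ± 0.41 at 22 months, and Vdac1 and Tomm70a -0.78 ± 0.47 and -0.78 ± 0.57 at 12 months. Of 68 tested proteins of the mitochondrial ribosome 36 were above 0 at 22 months and 31 at 12 months, with Mrpl48 and Mrpl43 at 1.19 ± 0.46 and -5.17 ± 2.06, and Mrpl37 and Mrps36 at 1.06 ± 0.37 and -1.44 ± 0.66. The medians of these 6 lists ran from -0.26 to 0.40 at 22 months and from -0.40 to 0.29 at 12 months on the log2 scale.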

How the data were processed

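RNA of 18 laser-captured optic nerve head libraries was made into cDNA with SMART-Seq v4 and into libraries with Nextera XT, aligned with STAR and counted with RSEM, per the labels' protocols. The submitters' processing notes name GRCm39, and no source used here gives tool versions or the annotation. Expected counts per gene, as deposited, were rounded before tests. TPM values of genes and isoforms were used as the authors deposited them. Library totals were 13097498 to 18488733. Symbols came from GENCODE M21 on GRCm38, which matched 52083 of 55416 identifiers. Exon overlaps, near copies and the fibronectin EDA exon were also taken from that annotation, and promoter windows from GRCm38.p6. These may differ from the GRCm39 annotation behind the deposited values.

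edgeR 4.0.16 (filterByExpr, TMM, robust quasi-likelihood fit, 4 group means) tested 15118 genes in 5 two-sided contrasts, with Benjamini-Hochberg adjustment over all of them and a threshold of 0.05. Errors are standard errors derived from each edgeR test, as the absolute log2 fold change over the square root of its F statistic. Lying within 2 of them thus restates that test. The script was tested on simulated data in which only well-read genes were changed, so that check does not cover members with few reads. Isoform shares were compared by exact permutation. Alternatives included DESeq2 1.42.0, limma 3.58.1 and leaving out libraries. Near copies were found with blastn 2.17.0.

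Genes were named by rule: isoform pairs, Sdha to Sdhd, the 2 highest and the lowest tested member of a complex, the 2 smallest p per complex and direction for labels, 3 for age and interaction, separated groups, and the 2 smallest p of each list. Genes named for their level beyond these, such as Ndufa3, Ndufv1, Ndufs1, Ndufs4, Ndufv2, Cox5a, Cox6c, Uqcrb and Atp5l, were chosen after their values were seen. Members and lists were chosen with earlier results of these data known.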

Additional observations from a re-analysis of the deposited data

Results flagged for a closer look

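Of 54 groups of 4 or 5 libraries checked for 1 value far from the rest, 9 held one. Chance gives about 1 in 20 for separate quantities, but those checked overlap, since the sums contain single members that were also checked. The 9 can therefore not be set against that rate. In 6 it was EDA-labelled replicate 4 at 12 months, with the lowest value of its group: Sdhd at 0.26 TPM, Ndufb5 at 0.03 TPM, Ndufc1 at 0 TPM, the summed TPM of complex I at 388 and of complex II at 39.7, and the members without Cox6a1 at 1222 TPM. The others were single high values: Cox6a1 at 6094 TPM in EDA-labelled replicate 5 at 12 months, and in control-labelled libraries at 22 months Ndufa4 at 254 TPM in replicate 1 and Sdha at 219 TPM in replicate 5.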

How the results depend on the processing

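No member passed an adjusted p of 0.05 in any of the 5 comparisons under any alternative run. The alternatives included a covariate of Xist minus Y-linked genes, a stand-in for sex. The members' median log2 difference between labels at 22 months was 0.28 with a covariate for the share of reads on ENSMUSG00000119584, and that of all genes 0.06. At 12 months it was 0.16 with that covariate and 0.34 with limma's quality weights, and that of all genes 0.11 and 0.12. The age difference in EDA-labelled libraries had a median of -0.11 with quality weights and the interaction one of -0.11, beside -0.05 and -0.13 over all genes. The interaction median was -0.19 without EDA-labelled replicates 4 of 12 and 3 of 22 months, an alternative chosen after seeing the data, beside -0.07 over all genes. With a pseudocount of 0.5 TPM the label difference in the share of Cox7a1 at 22 months was -11.1 percentage points, and that of Ndufa4l2 at 12 months 4.4. The median level of complex IV was 4.74 TPM over tested members, which leaves out members with few reads. For the others the cause was not tested. Leaving out 1 library in turn, the median ran from -0.14 to 0.20 at 22 months and from -0.18 to 0.04 at 12 months between labels. With age it ran from -0.11 to 0.07 in control-labelled libraries and from -0.18 to 0.24 in EDA-labelled ones, with the lowest value without EDA-labelled replicate 2 of 22 months, where the median of all genes was -0.25. The interaction had -0.02 to 0.29. No paired analysis was possible because the labels carry no replicate numbers that link libraries across groups. Depth limits 38 of 98 members, which had a median of fewer than 10 reads.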
